A study of Mus musculus with 6 samples.

Results

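The 10 antiviral interferon effector genes described here are Ifit1, Ifit2, Ifit3, Isg15, Oasl2, Rsad2, Usp18, Rtp4, Bst2 and Ifi27. They were chosen by name as effectors of type I interferon, each was matched to 1 mouse Ensembl ID, and all 10 were among the 28786 gene IDs of the count table. They were measured in haematopoietic stem cells (HSCs) from the bone marrow of C57BL/6 mice, 6 to 8 weeks old and wild type. Cells negative for lineage markers and CD48 and positive for Sca-1, c-Kit and CD150 were sorted at 1500 per library, and estimated counts summed to 14270069 to 22070594 per library. The libraries, 3 labelled TMRM-high and 3 labelled TMRM-low, differ in the signal of TMRM, a dye that collects in mitochondria with a high membrane potential. How the TMRM gates were set, and whether each library had its own mice, is not given in the sources used here. All p-values below therefore weigh differences against the spread of these 6 libraries alone, and that spread may be technical.

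Type I interferons are cytokines that bind the receptor pair Ifnar1 and Ifnar2. The kinases Jak1 and Tyk2 then activate transcription factors that join Irf9 and bind the interferon-stimulated response element (ISRE) in front of antiviral genes. In bone marrow, interferon is known to bring resting HSCs into the cell cycle, and stem cells are known to keep some antiviral genes on without infection.

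Of the 10 genes, 8 were lower in TMRM-high than in TMRM-low libraries, none was higher and 2, Ifit2 and Ifit3, did not pass the test (edgeR's quasi-likelihood test, Benjamini-Hochberg adjusted p below 0.05 over all 13662 genes tested). Of all tested genes 5.12% were called lower and 5.84% higher. No member was higher at an unadjusted p below 0.05 (0 genes), nor with DESeq2 or limma voom with sample quality weights (0 each). The median log2 fold change, TMRM-high minus TMRM-low, was -1.76 over the 10 genes and -0.03 over all genes tested. In 9 of the 10 every TMRM-high library lay below every TMRM-low library, which was so for 17.0% of all genes (18.4% in the other direction). Summed over the 10 genes, the level was 245, 244 and 249 CPM (counts scaled to library size) in the TMRM-high libraries and 752, 644 and 772 CPM in the TMRM-low libraries. Ifi27 made up 35.6% to 39.4% of this sum in the 6 libraries, and without it the sum still ran from 152 to 158 CPM in TMRM-high and from 395 to 497 CPM in TMRM-low libraries. In bulk samples, fewer cells that carry an RNA and less RNA per cell cannot be told apart.

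The TMRM-high libraries were far more alike than the others over all genes, and more alike over the members. Over the 10 genes, a chi-square comparison of counts gave, per degree of freedom, 2.43 to 4.04 for pairs of TMRM-high and 38.1 to 82.6 for pairs of TMRM-low libraries (about 1 if counting were the sole source of spread). Over all genes with at least 20 counts it gave 3.98 to 6.74 and 46.0 to 51.4. Without TMRM-high replicate 1, 2 or 3, 4 of the 10 genes passed each time, Oasl2, Rtp4, Bst2 and Ifi27, when 1.41%, 1.35% or 1.28% of all genes were called lower. With the TMRM-high libraries summed into 1, only Rtp4 (adjusted p = 0.0152) and Ifi27 (0.0118) of the 10 passed, and 0.307% of all genes were called lower. The log2 fold change of every member stayed negative in these fits. The members' count was 8 under RLE, upper-quartile or total-count scaling (5.06%, 5.26% and 4.89% of all genes lower) and without TMRM-low replicate 1 or 2 (6.97% and 7.54%). It was 9, Ifit3 being added, without a low-count filter (2.90%), at a mean count of at least 50 (6.46%), with DESeq2 (9.82%), with limma voom (6.45%), at an adjusted p of 0.10 (8.33%) and without TMRM-low replicate 3 (8.39%). With the replicate number as a block it was 6, Isg15 and Rsad2 being lost (3.29%).

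**Figure D1:**
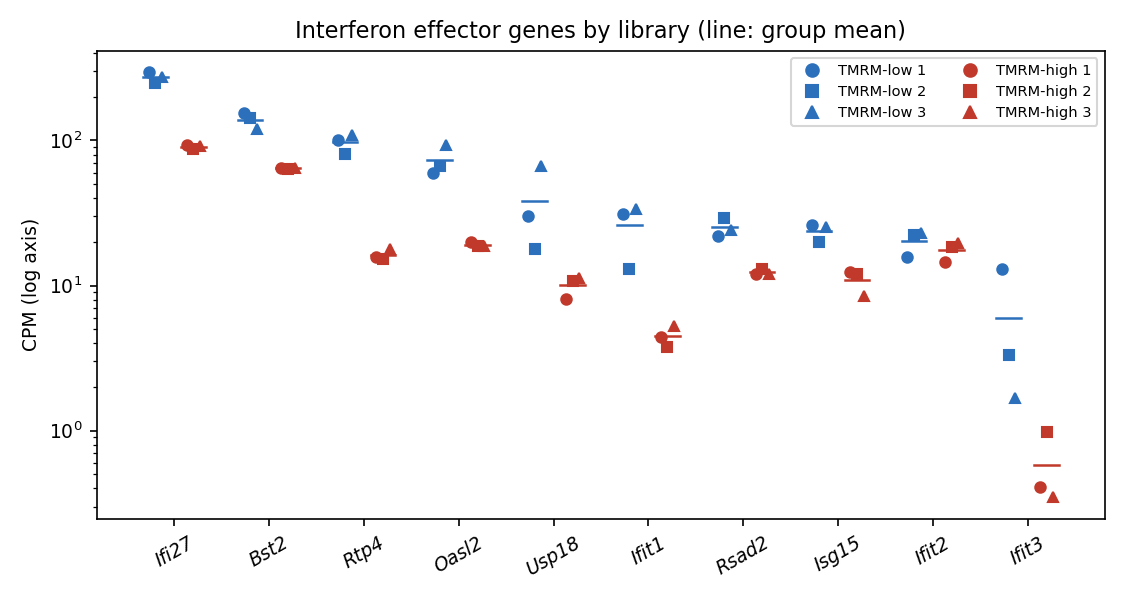
CPM of the 10 genes in each library, on a log axis, with TMRM-low libraries in blue, TMRM-high libraries in red, a symbol for each replicate and a line at the group mean. The groups overlap only for Ifit2.

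Sequence in front of the gene starts was taken from RefSeq on GRCm38.p6, in which 7 of the 10 members have an entry. The ISRE core was searched as GAAA, any 2 bases and GAAA, on both strands, in the 250 bases before each start. It was found for 5 of these 7 genes (Ifit1, Ifit3, Isg15, Rsad2 and Bst2) and in 2.98% of 32851 windows of the same length. The gamma-activated site GAS, searched as TTCNNNGAA, was found for Bst2 and Ifit2 and in 7.02% of windows, and in Bst2 it overlaps an ISRE match. The stretches below set Ifit1 and Ifit3, with matches, beside their neighbour Ifit2, whose searched windows held none. Isg15 and Bst2 are shown because they hold overlapping runs of the motif. Capitals mark the ISRE matches, a match on the other strand reads TTTC, any 2 bases, TTTC, and for Ifit1 only the bases outside annotated exons are printed.
Ifit1 (chr19:34640744-34640870, plus strand): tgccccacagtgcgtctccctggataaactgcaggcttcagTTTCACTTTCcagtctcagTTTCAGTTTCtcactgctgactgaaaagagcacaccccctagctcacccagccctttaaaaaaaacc
Ifit3 (chr19:34583279-34583528, plus strand): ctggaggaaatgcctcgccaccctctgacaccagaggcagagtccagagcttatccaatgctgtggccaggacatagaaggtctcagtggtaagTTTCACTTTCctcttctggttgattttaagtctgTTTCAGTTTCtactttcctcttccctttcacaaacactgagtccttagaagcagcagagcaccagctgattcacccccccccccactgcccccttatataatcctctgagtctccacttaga
Ifit2 (chr19:34550444-34550693, plus strand): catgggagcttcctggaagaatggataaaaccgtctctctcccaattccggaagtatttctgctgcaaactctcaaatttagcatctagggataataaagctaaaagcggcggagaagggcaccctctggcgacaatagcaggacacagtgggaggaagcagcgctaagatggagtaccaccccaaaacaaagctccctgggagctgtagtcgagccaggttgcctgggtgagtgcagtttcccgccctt
Isg15 (chr4:156200819-156201068, minus strand): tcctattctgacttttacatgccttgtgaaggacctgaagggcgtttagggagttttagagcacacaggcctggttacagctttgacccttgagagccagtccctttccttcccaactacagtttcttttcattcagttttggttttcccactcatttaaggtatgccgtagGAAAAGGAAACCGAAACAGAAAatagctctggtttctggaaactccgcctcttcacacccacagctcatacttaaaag
Bst2 (chr8:71537473-71537722, minus strand): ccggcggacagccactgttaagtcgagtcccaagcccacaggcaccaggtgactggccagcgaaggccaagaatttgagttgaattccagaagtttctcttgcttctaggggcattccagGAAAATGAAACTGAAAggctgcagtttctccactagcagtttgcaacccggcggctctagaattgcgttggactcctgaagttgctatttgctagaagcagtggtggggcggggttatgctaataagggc
Counted back from the start, the Ifit1 matches lie at -104 to -95 and -85 to -76 and the Ifit3 matches at -156 to -147 and -122 to -113. The 3 Isg15 matches overlap between -78 and -57, and the 2 Bst2 matches between -130 and -115. Neither the 250 bases before Oasl2, which was called lower, nor those before a further RefSeq start of Ifit2 hold the core. These are letter matches in windows of 250 bases, so a core elsewhere would be missed, and binding was not measured. Whether the matches bear on the differences was not tested.

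The Ifit genes encode proteins with tetratricopeptide repeats that bind viral RNA or other Ifit proteins and hold back translation. Ifit1, Ifit2 and Ifit3 lie within 99.3 kb of chromosome 19 and are described in turn. Ifit1 (ENSMUSG00000034459, chromosome 19, 34640871 to 34650009 on GRCm38), which recognises capped RNA without ribose methylation, had 4.45, 3.74 and 5.28 CPM in TMRM-high libraries. It had 31.2, 13.1 and 33.9 CPM in TMRM-low libraries. All TMRM-high values were below all TMRM-low values, and within the TMRM-low group replicate 2 was the lowest. The fitted level was 5.81-fold lower in the TMRM-high group (log2 fold change -2.54, SE 0.410, adjusted p = 0.00862).

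Ifit2 (ENSMUSG00000045932, 34550694 to 34576419), which encodes a partner of the other Ifit proteins, had 14.5, 18.4 and 19.5 CPM in TMRM-high and 15.8, 22.2 and 23.1 CPM in TMRM-low libraries. The groups overlapped, and the log2 fold change of -0.22 (SE 0.252) did not pass (adjusted p = 0.643). Its range over the alternative analyses was -0.37 to -0.10. Ifit3 (ENSMUSG00000074896, 34583531 to 34588731) was the least abundant member, with 0.408, 0.975 and 0.347 CPM in TMRM-high libraries. In TMRM-low libraries it had 13.0, 3.31 and 1.69 CPM, a wide spread in which replicate 1 was highest. The groups did not overlap, but the log2 fold change of -3.35 (SE 0.913) missed the threshold (adjusted p = 0.0573). DESeq2 (adjusted p = 0.00255) and limma voom with quality weights (0.0111) called it. Without TMRM-low replicate 1 the log2 fold change was -2.08 (SE 0.685).

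Of the 31-base words of Ifit3 transcripts, 61.8% also occur in its near copy Ifit3b, so the split of reads between them is uncertain. Ifit3b had 0.0544 to 0.347 CPM in the 6 libraries and was too low to test. Ifit3 and Ifit3b together had 0.590, 1.08 and 0.694 CPM in TMRM-high and 13.0, 3.56 and 1.74 CPM in TMRM-low libraries, so the groups stayed apart when both were counted. Ifit1 shares 10.8% of its words with other genes, chiefly Ifit1bl2. Ifit1bl2 itself did not pass (log2 fold change -0.76, SE 0.498), while Ifit1bl1 was lower (-2.41, SE 0.536, adjusted p = 0.0285).

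The ratio of Ifit1 to Ifit2 CPM was 0.306, 0.204 and 0.270 in TMRM-high libraries and 1.97, 0.590 and 1.47 in TMRM-low libraries. That of Ifit3 to Ifit2 was 0.028, 0.053 and 0.018 against 0.821, 0.149 and 0.073. Neither ratio overlapped between the groups, so Ifit1 and Ifit3 were lower relative to Ifit2 in each TMRM-high library. Ifit1 to Ifit3 overlapped. An exact two-sided permutation test of 3 against 3 libraries cannot go below p = 0.10, which both of the first ratios reached (0.20 adjusted over 4 ratios chosen after the values were seen).

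**Figure D2:**
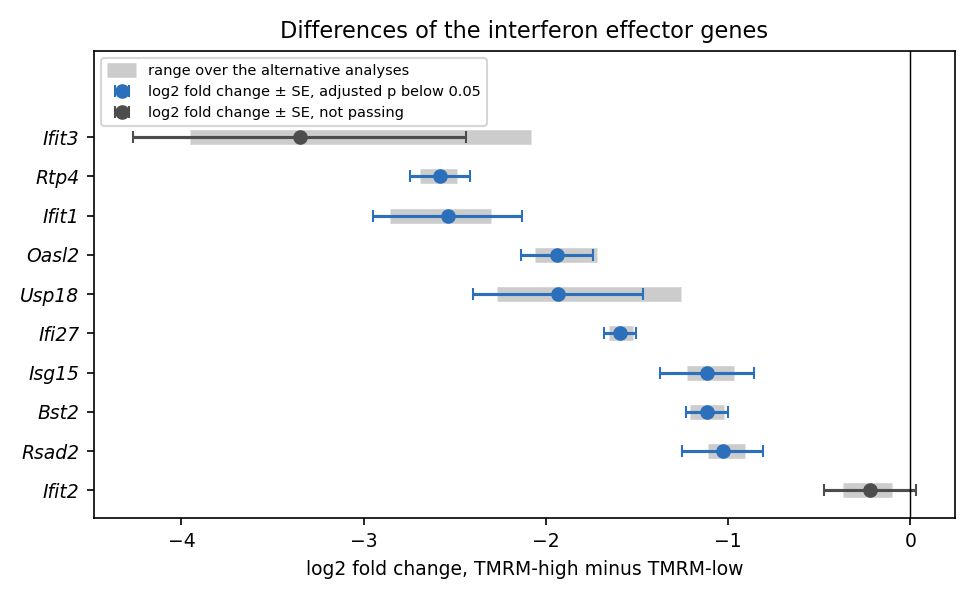
Log2 fold change of each gene, TMRM-high minus TMRM-low, with its SE as a bar and the range over the alternative analyses as a grey band. Values run from -3.35 for Ifit3 to -0.22 for Ifit2, and Ifi27 and Bst2 have the narrowest SE.

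Isg15 and Usp18 act on the same modification. Isg15 (ENSMUSG00000035692, chromosome 4, 156199424 to 156200818) encodes a ubiquitin-like protein that is joined to other proteins, and 13.1% of its 31-base words occur in other genes, mostly in AC151275.1 (10.2%). It had 12.3, 12.0 and 8.54 CPM in TMRM-high and 26.0, 19.97 and 25.4 CPM in TMRM-low libraries, with no overlap (log2 fold change -1.12, SE 0.258, adjusted p = 0.0323). Usp18 (ENSMUSG00000030107, chromosome 6, 121245906 to 121270917) encodes the protease that removes Isg15 and also blocks Ifnar2. It had 8.03, 10.8 and 11.3 CPM in TMRM-high and 30.2, 18.0 and 66.6 CPM in TMRM-low libraries, which did not overlap but spread widely (-1.93, SE 0.466, adjusted p = 0.0387). Without TMRM-low replicate 3, the highest, the log2 fold change was -1.26 (adjusted p = 0.0370). An RNA on the other strand of Usp18 covers 4.4% of its exon bases, and tagmented cDNA libraries do not mark strand.

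Of 6 genes of Isg15 conjugation, these 2 included, 4 were lower and 2 did not pass. None was higher (0 at an unadjusted p below 0.05 with edgeR, and 0 with DESeq2 or limma voom). Among all genes tested, 5.12% were called lower with all libraries and 1.28% to 1.41% without 1 TMRM-high library. The activating enzyme gene Uba7 fell from 120 ± 8.64 to 77.6 ± 2.22 CPM (mean ± SD, n = 3 libraries; log2 fold change -0.63, SE 0.0964). The conjugating enzyme gene Ube2l6 fell from 128 ± 15.8 to 59.1 ± 4.17 CPM (-1.11, SE 0.123). The ligase genes Trim25 (-0.49, SE 0.142, adjusted p = 0.0672) and Herc6 (-0.51, SE 0.191, adjusted p = 0.137) did not pass with edgeR. With any 1 TMRM-high library left out, 1 of the 6 was called lower.

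Oasl2 and Rsad2 act on nucleotides. Oasl2 (ENSMUSG00000029561, chromosome 5, 114896936 to 114912234), a relative of the oligoadenylate synthetases that respond to double-stranded RNA, had 19.9, 18.7 and 18.7 CPM in TMRM-high libraries. It had 60.1, 66.3 and 93.7 CPM in TMRM-low libraries. The TMRM-high values were nearly equal and lay far below the others (log2 fold change -1.94, SE 0.198, adjusted p = 0.000997). Its neighbour and relative Oasl1 was lower as well (-1.70, SE 0.391, adjusted p = 0.0331).

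Rsad2 (ENSMUSG00000020641, chromosome 12, 26442746 to 26456452) encodes viperin, an enzyme that makes a chain-terminating nucleotide. It had 12.1, 12.9 and 11.9 CPM in TMRM-high and 22.04, 29.2 and 24.3 CPM in TMRM-low libraries, without overlap (-1.03, SE 0.222, adjusted p = 0.0251). Cmpk2, the adjacent gene on the other strand, encodes a nucleotide kinase and was named after its values were seen. It had 17.8, 22.1 and 21.9 CPM in TMRM-high and 21.6, 29.8 and 74.5 CPM in TMRM-low libraries, which overlapped, and did not pass (-1.03, SE 0.436, adjusted p = 0.189). The ratio of Rsad2 to Cmpk2 overlapped between the groups.

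Rtp4 (ENSMUSG00000033355, chromosome 16, 23520291 to 23614222), a zinc finger chaperone of membrane receptors that also restricts viruses, had the lowest log2 fold change among the members that passed. It had 15.7, 15.1 and 17.8 CPM in TMRM-high and 101, 80.9 and 109 CPM in TMRM-low libraries. It was 5.98-fold lower in the TMRM-high group (log2 fold change -2.58, SE 0.164, adjusted p = 0.000102). A transcript outside the count table, Gm45338, shares 12.5% of its 31-base words.

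Bst2 (ENSMUSG00000046718, chromosome 8, 71534255 to 71537456) encodes tetherin, which holds budding virus particles on the cell surface. It had 64.6, 63.9 and 64.6 CPM in TMRM-high libraries, the most even values of the 10 genes, and 156, 142 and 120 CPM in TMRM-low libraries (log2 fold change -1.11, SE 0.116, adjusted p = 0.00102). Bst2 is also a marker of plasmacytoid dendritic cells. Over 10 markers of these cells, 9 were tested, in a comparison where 5.12% of all genes were called lower and 5.84% higher. Bst2 itself and Tcf4 (100 ± 3.19 against 162 ± 17.9 CPM) were lower, and Ly6d (24.9 ± 0.594 against 1.12 ± 1.13 CPM) and Smim5 (47.9 ± 2.66 against 30.8 ± 3.26 CPM) were higher. Without Bst2, the summed level was 190 to 195 CPM in TMRM-high and 206 to 225 CPM in TMRM-low libraries. Tcf4 was the largest part of this sum and carried its direction. Siglech, a defining marker, had 5.14 to 6.31 CPM in TMRM-high and 0.752 to 14.6 CPM in TMRM-low libraries, and Klk1 had no count in 5 of the 6. The part of such cells in the result was not tested.

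Ifi27 (ENSMUSG00000064215, chromosome 12, 103434211 to 103440239) encodes a small hydrophobic protein of intracellular membranes. It had 93.2, 87.9 and 91.2 CPM in TMRM-high and 296, 249 and 275 CPM in TMRM-low libraries, well apart (log2 fold change -1.59, SE 0.0875, adjusted p = 5.65e-05). Its neighbour and relative Ifi27l2a was at 13.3 ± 1.97 against 62.2 ± 3.45 CPM (-2.22, SE 0.174, adjusted p = 0.000248). The other neighbour, Ifi27l2b, had at most 0.521 CPM and was not tested. No 31-base word of Ifi27 or Bst2 occurs in another gene.

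**Figure D3:**
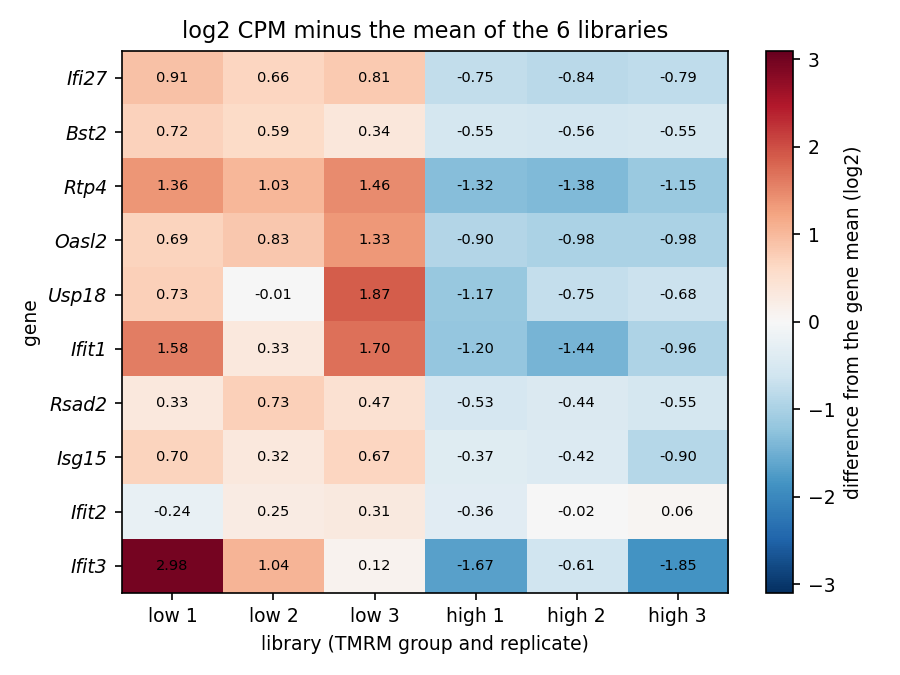
Log2 CPM (prior count 2) of each gene minus its mean over the 6 libraries, with the value printed in each cell. The TMRM-high columns differ most for Ifit3, and the TMRM-low columns differ most for Ifit3, Usp18 and Ifit1.

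The order of the TMRM-low libraries was not the same in every gene. Replicate 2 had the lowest value of the group for 5 genes, replicate 1 for 3 and replicate 3 for 2. The highest value was in replicate 3 for 5 genes, in replicate 1 for 4 and in replicate 2 for 1. Replicate 2 also had the lowest mean of centred log2 CPM over the members (0.578, against 0.976 in replicate 1 and 0.906 in replicate 3). The coefficient of variation had a median of 17.1% over the genes in TMRM-low libraries (8.70% to 102%) and of 11.8% in TMRM-high libraries (0.680% to 60.0%).

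Levels were compared between genes as CPM per kb of merged exon. In TMRM-low libraries Ifi27 (186 ± 16.2) and Bst2 (154 ± 20.1) were highest and overlapped. Rtp4 (45.5 ± 6.71) and Isg15 (31.5 ± 4.39) followed, each apart from the gene above it. Usp18 (13.7 ± 9.06), Oasl2 (11.5 ± 2.81), Ifit1 (9.81 ± 4.26), Rsad2 (5.81 ± 0.844), Ifit2 (5.19 ± 1.01) and Ifit3 (3.43 ± 3.49) each overlapped with the next. In TMRM-high libraries Bst2 (71.3 ± 0.484) stood above Ifi27 (61.9 ± 1.83), Isg15 (14.5 ± 2.77) and Rtp4 (7.61 ± 0.650). Ifit2 (4.45 ± 0.666), Usp18 (3.60 ± 0.632), Oasl2 (3.00 ± 0.103) and Rsad2 (2.84 ± 0.121) came next, each overlapping with the gene before it after Ifit2. Ifit1 (1.69 ± 0.289) and Ifit3 (0.331 ± 0.198) were lowest, each apart from the gene above it. Ifit2 was thus 9th of the 10 in TMRM-low and 5th in TMRM-high libraries, in both cases within the spread of a neighbour in the order.

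A wider list of 42 antiviral interferon-stimulated genes outside the 10 gave 39 tested genes, of which 22 were lower, 17 did not pass and none was higher (0 at an unadjusted p below 0.05 with edgeR, and 0 with DESeq2 or limma voom). All 39 had a negative log2 fold change, against 52.8% of all genes tested, and the median was -1.02. In 32 of them no TMRM-high library reached a TMRM-low library, which was so for 17.0% of all genes tested. Over all genes, 5.12% were called lower with all libraries and 1.28% to 1.41% without 1 TMRM-high library. With 1 TMRM-high library left out, 10, 10 or 13 were called lower. Ifi44, an interferon-induced cytoplasmic protein gene, had a mean of 7.72 ± 0.728 CPM with high TMRM and of 43.3 ± 2.80 CPM with low TMRM, a log2 fold change of -2.48 (SE 0.194). Shisa5 was at 86.8 ± 3.72 against 224 ± 16.5 CPM (-1.37, SE 0.0869). Ly6e, which restricts virus entry, was more abundant and fell from 725 ± 1.83 to 493 ± 17.9 CPM (-0.56, SE 0.0503). Lgals9, a galectin gene, had 326 ± 13.4 against 371 ± 27.5 CPM and did not pass (-0.19, SE 0.0726, adjusted p = 0.152). Sp100, a nuclear body gene, narrowly missed (-0.67, SE 0.178, adjusted p = 0.0515).

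**Figure D4:**
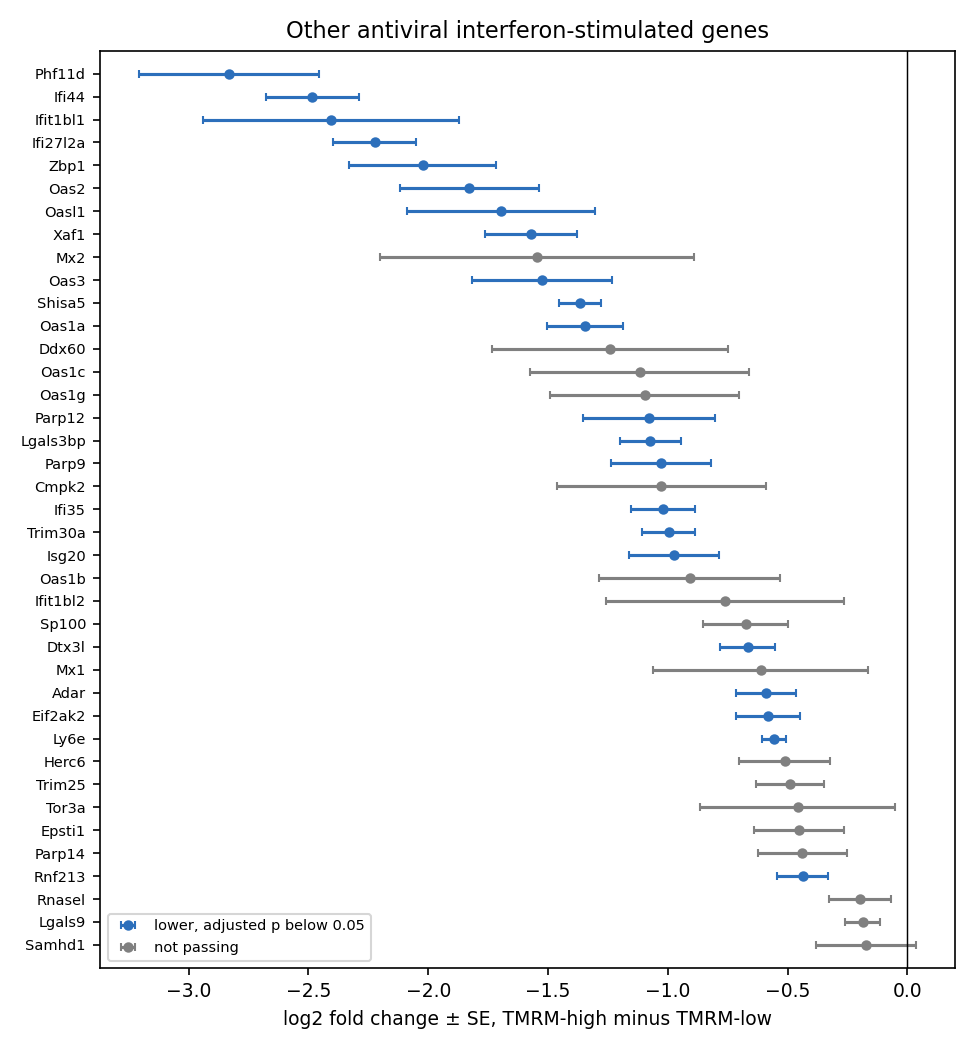
Log2 fold change with SE of the 39 tested antiviral genes outside the 10 members, in order of size, with called genes in blue and the others in grey. The values run from -2.83 for Phf11d to -0.17 for Samhd1.

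Of 14 genes that carry or curb the interferon signal, 6 were lower and 8 did not pass, and the median was -0.54. None was higher (0 at an unadjusted p below 0.05 with edgeR, and 0 with DESeq2 or limma voom). Among all genes tested, 5.12% were called lower with all libraries. That share was 1.41% without TMRM-high replicate 1 and 1.35% without replicate 2. Irf7, a transcription factor gene that is itself induced by interferon, had 9.57, 8.98 and 8.96 CPM in TMRM-high and 75.9, 55.5 and 79.6 CPM in TMRM-low libraries. The groups lay far apart (log2 fold change -2.94, SE 0.194, adjusted p = 0.000119). Irf8, a transcription factor gene of myeloid and dendritic cells, was at 173 ± 9.39 against 323 ± 22.3 CPM (-0.90, SE 0.0793). The receptor gene Ifnar2 was lower (-0.63, SE 0.102, adjusted p = 0.00800), as were Irf9 (-0.98, SE 0.235, adjusted p = 0.0380) and Irf2 (-0.61, SE 0.125, adjusted p = 0.0216). Jak1 (-0.13, SE 0.0796) and Irf1 (0.04, SE 0.136) did not pass. With TMRM-high replicate 1 or 2 left out, 3 signalling genes were called lower.

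Of 13 tested genes that sense foreign nucleic acid or relay that signal, 2 were lower and 11 did not pass. None was higher (0 at an unadjusted p below 0.05 with edgeR, and 0 with DESeq2 or limma voom). Among all genes tested, 5.12% were called lower. That share was 1.41%, 1.35% or 1.28% without TMRM-high replicate 1, 2 or 3, and 8.39% without TMRM-low replicate 3. Dhx58, an RNA helicase gene, had 16.9 ± 1.46 CPM in the TMRM-high and 47.3 ± 11.9 CPM in the TMRM-low group (-1.48 as log2 fold change, SE 0.222, adjusted p = 0.00611). The adaptor gene Tmem173, which encodes STING, was lower too (-1.04, SE 0.167, adjusted p = 0.00855). Myd88 (-0.54, SE 0.206) and Irf3 (-0.23, SE 0.178) did not pass. The median was -0.38, and 10 of the 13 were negative, against 52.8% of all genes tested. In 3 every TMRM-high library lay below every TMRM-low library (17.0% of all genes), and in 1, Aim2, above (18.4%). Aim2 had 33.9, 36.6 and 29.6 CPM in TMRM-high and 28.2, 16.6 and 26.2 CPM in TMRM-low libraries. It did not pass (0.49, SE 0.240, adjusted p = 0.252). The count of genes called lower fell to 0 without TMRM-high replicate 1 and to 1 without replicate 2 or 3. It rose to 6 without TMRM-low replicate 3.

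Interferon RNA itself was scarce, and of 17 interferon genes in the table only Ifnb1 could be tested. Ifnb1, which encodes interferon beta, had 18, 34 and 27 counts in TMRM-high and 1, 0 and 3 counts in TMRM-low libraries. The ratio of summed counts, scaled to library size, was 18.3 (95% exact binomial interval 6.86 to 68.7, which covers counting error only). The edgeR log2 fold change was 4.16 (SE 0.970, adjusted p = 0.0342), in a comparison where 5.84% of genes were called higher. The call was lost with limma voom with quality weights (adjusted p = 0.114), with no low-count filter (0.0581), with the replicate number as a block (0.0712), without any 1 TMRM-high library (0.118 to 0.171), without TMRM-low replicate 1 (0.0636) and with the TMRM-high libraries summed (0.674). The 10 Ifna genes in the table summed to 9, 2 and 5 counts in TMRM-high libraries and to 0 in each TMRM-low library. Ifng had 6, 10 and 4 counts in TMRM-high libraries and 0 in each TMRM-low library. Ifnz had 6, 2 and 4 counts in TMRM-high and 1, 0 and 0 counts in TMRM-low libraries. Ifnk had 2, 2 and 0 counts in TMRM-high libraries and 0 in each TMRM-low library. Ifnl2 had 1 count, in TMRM-low replicate 3. All of these but Ifnb1 were too low to test.

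**Figure D5:**
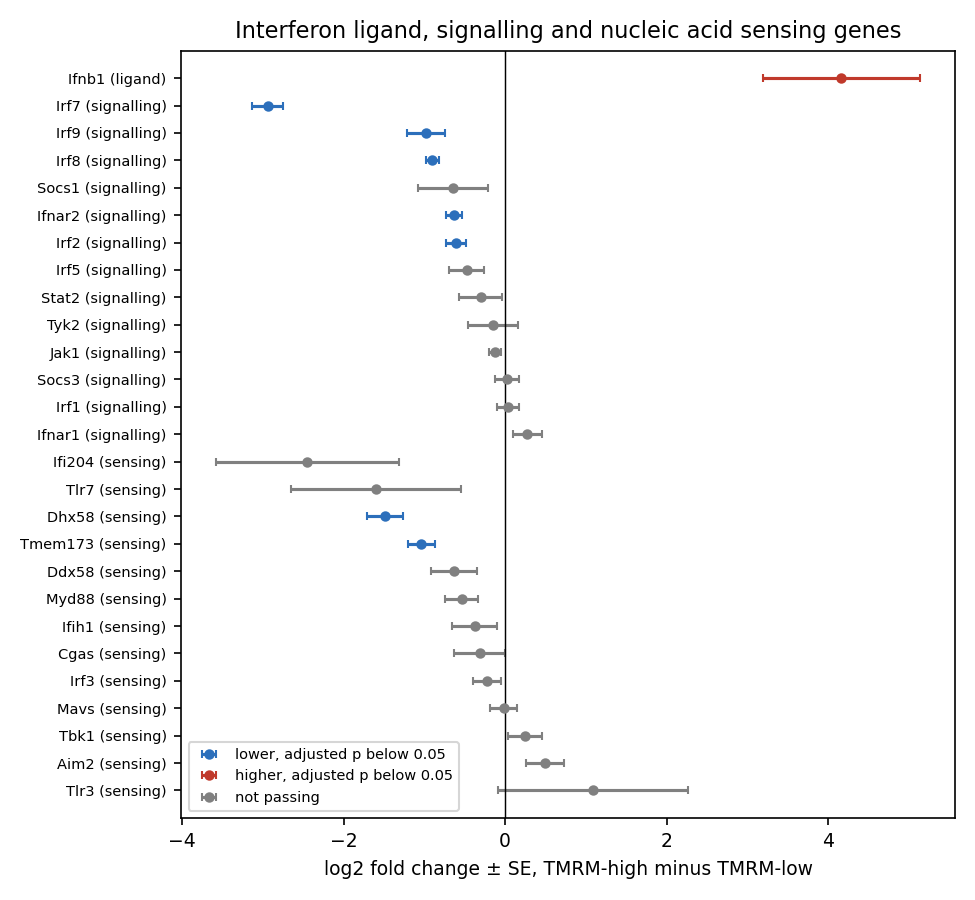
Log2 fold change with SE of the interferon ligand, signalling and nucleic acid sensing genes reported here, with genes called lower in blue, higher in red and the others in grey. Ifnb1 lies at 4.16 and Irf7 at -2.94.

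The 5 genes outside the 10 whose levels over the 6 libraries were most like the mean profile of the members were A930005H10Rik, H2-Aa, Igha, Myl10 and Pim2. They were taken from 10349 genes of at least 5 CPM by the smallest root mean square distance of centred log2 CPM, which was 0.0746 to 0.127. Their log2 fold changes ran from -1.77 for Pim2 to -1.51 for Igha.

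Markers of other blood cells moved with the TMRM groups. For the counts below, 5.12% of all genes tested were called lower and 5.84% higher. Summed B cell markers (8 of 8 higher) were at 470 to 478 CPM in TMRM-high and 41.2 to 45.4 CPM in TMRM-low libraries, and granulocyte and monocyte markers (10 of 11 higher) at 14700 to 15090 against 3669 to 3883 CPM. Erythroid markers (5 of 8 higher) were at 201 to 225 against 49.0 to 66.6 CPM. Of 9 tested natural killer and T cell markers 6 were lower and 1 higher, at summed levels of 618 to 625 against 378 to 455 CPM. The higher one, Nkg7, carried that sum (556 ± 6.18 against 218 ± 24.1 CPM), and without it the sum ran the other way, at 63.4 to 68.6 against 187 to 217 CPM. Of 6 tested macrophage markers C1qa and C1qb were lower and Vcam1 and Slc40a1 higher, at summed levels of 122 to 142 against 18.1 to 29.8 CPM. Of 12 HSC markers 4 were lower in TMRM-high libraries and 1 was higher, at summed levels of 799 to 808 against 1041 to 1124 CPM. Every HSC marker was detected in all 6 libraries. Ly6a, which encodes the gate marker Sca-1, had 30.3 ± 2.18 against 167 ± 7.77 CPM (log2 fold change -2.47, SE 0.103), and Procr, a surface marker of HSCs, 3.57 ± 0.304 against 33.9 ± 9.84 CPM (-3.25, SE 0.298). Hlf was lower as well, and Gata2 was the higher one (0.62, SE 0.0874). Slamf1, which encodes the gate marker CD150, did not pass (0.11, SE 0.694), nor did Kit (0.08, SE 0.146). Of the B cell markers, Ms4a1 had no count in any TMRM-low library, and Vpreb1 had none in 1 of them. The part of these markers' cells in the differences of the interferon effector genes was not tested.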

How the data were processed

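RNA of sorted HSCs was measured in 3 TMRM-high and 3 TMRM-low libraries. Per the labels' protocols, RNA of 1500 cells was copied to cDNA, enriched by PCR (13 cycles), tagmented and read in pairs of 150 bases. The submitters' processing notes list GRCm38, Salmon (as 0.03.1) and Trim Galore 0.5.0. The table deposited by the authors holds estimated counts, unscaled, for each gene. Its annotation and settings: not given in the sources used here. Salmon divides reads between similar transcripts. Without molecular identifiers, PCR copies count as reads. Totals were 14270069 to 22070594 per library.

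Counts were rounded. Genes were kept by filterByExpr (13662), scaled by TMM and fitted with edgeR 4.0.16 (glmQLFit, robust, group as the only term) in R 4.3.3, checked on simulated data. The SE is the log2 fold change divided by the square root of F. Symbols were missing for 1058 IDs. Positions, merged exons and transcript words of 31 bases are from GENCODE M21 on GRCm38. Alternatives were DESeq2 1.42.0 and limma 3.58.1 voom with sample quality weights (2 choices at once), other scaling (total counts, RLE, upper quartile), other filters (none, or a mean count from 50), a replicate block, a threshold of 0.10, leaving out each library, and summing the TMRM-high libraries. The members, lists and alternatives were chosen with earlier results of these data known. All members are named. From each other pathway list up to 4 called genes with the smallest p are named. So are up to 2 abundant ones that did not pass. Paralogs, interferons with a count (the Ifna genes only as a sum) and the 5 most similar genes are named too. Cmpk2, Phf11d, Samhd1, Irf9, Irf2, Aim2 and the markers given singly were named after their values were seen. Left-out and total-count values of the ratios and the summed level, and marker sums without Bst2 or Nkg7, were also added then. Some single genes of the lists are not reported here.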

Additional observations from a re-analysis of the deposited data

How the results depend on the processing

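Without 1 library, the 10 members gave 4 to 9 genes called lower (8 with all libraries) and the other antiviral genes 10 to 24 (22 with all). Over all genes, 181 to 1174 were then called lower and 250 to 1398 higher, against 700 and 798. With the TMRM-high libraries summed, 2 members, 2 other antiviral genes, 42 genes lower and 86 higher passed. By construction only the TMRM-low libraries then give a spread. DESeq2 called 1337 genes lower and 1324 higher, and an adjusted p of 0.10 gave 1138 lower. No member changed direction in any of its 16 alternatives. Between libraries of the same replicate number, deviations from the group mean had correlations of -0.014, 0.016 and 0.021. Not every library correlated best with its own number. The spread between TMRM-low libraries could hide shared mice, so these values cannot decide whether the numbers pair samples. With the replicate number as a block, 6 members and 449 genes in all were called lower. Of 463 values of 29 other named genes under the alternatives, 406 kept direction and call, 42 lost and 14 gained a call, and 1 reversed: Irf1 (0.04 with all libraries) ran from -0.093 to 0.120 without 1 library. The log2 ratio of Ifit1 to Ifit3, 0.58 with all libraries, was -0.053 without TMRM-low replicate 1 and at most 1.48, without TMRM-low replicate 3. That of Rsad2 to Cmpk2, -0.20 with all, was 0.085 without TMRM-low replicate 1, 0.058 without replicate 2 and -0.735 without replicate 3. Where no cause is named above, the cause was not tested. With 3 libraries a group and at most 19 counts of Ifit3 in a TMRM-high library, smaller differences in the scarce members may be missed.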
